A study of Carassius auratus with 10 samples.

Results

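SKF 38393 (SKF) is a benzazepine that acts as a selective agonist of dopamine D1-type receptors, and its effect was measured in primary cultures of goldfish radial glial cells (RGCs), elongated glia at the ventricular surface that act as neural progenitors in fish. The cells came from the hypothalamus and telencephalon of adult female goldfish, were grown in a medium with fetal bovine serum and were used at passage 3. A group of 3 cultures received 10 µM SKF for 24 h, and 4 cultures were left untreated. The labels describe the controls as untreated and mention no vehicle. They number every culture except a control labelled RGC. Some of the numbers recur among control and SKF cultures, and what they stand for is not known here. A further 3 cultures of the series received 1000 nM of the peptide secretoneurin A (SNa) for 24 h. Their log2 ratios are set beside those of SKF where this helps. The SNa comparison was normalized on its own scale, and its ratios use the control values of that scale. Both treatments were compared with the same controls, so the 2 comparisons are not independent. The paper describes dilution of SNa in serum-free medium but does not describe the SKF exposure, so the medium during that exposure is not known here.

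The comparison was described per gene symbol. Values of all unigenes (assembled transcripts) that share the first word of the gene name were summed, and a symbol was kept where the mean of the SKF and control values was at least 50. This left 14038 of 17428 symbols with reads (80.5%), and the series as a whole had reads on 17474 symbols. The symbol just inside the minimum was *kcnab1b*, at a mean of 50.1, and the one just outside it was *zgc:193505*, at a mean of 49.99. The values are normalized read counts, and the files hold 1 pooled value per group, so no value can be given per culture and no spread between cultures or p-value exists for any difference below. The intervals in brackets are 95% intervals of the log2 ratio from the exact binomial distribution of the pooled reads, and they cover counting error only. The pools held 147886694 reads for control and 86711702 for SKF. A difference is called "2-fold" where the log2 ratio of SKF to control was at least 1 or at most -1. Levels were not scaled by transcript length, so they are compared within a gene and not between genes.

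D1-type receptors couple to stimulatory G proteins. These activate adenylyl cyclases, which make cyclic AMP; cyclic AMP releases the catalytic subunits of protein kinase A, and this kinase phosphorylates transcription factors of the CREB family. Phosphodiesterases break cyclic AMP down. In teleosts, RGCs are the main site of brain aromatase, which makes estrogens from androgens, and they are marked by *gfap*, *vim*, brain-type fatty acid binding proteins and glutamate transporters.

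The distribution of ratios was narrow on the upper side and long on the lower side. The median log2 ratio over the kept symbols was 0.04, with quartiles of -0.26 and 0.34, and 54% of symbols were above 0. In SKF, 176 symbols were at least 2-fold higher (1.25%) and 468 at least 2-fold lower (3.33%), while 13394 stayed within 2-fold (95.4%). Counts in the gene groups below are to be read beside these shares. At least 4-fold lower values were found for 115 symbols, of which 28 were on the list of lens genes described below. Only *si:dkey-222b8.1* was at least 4-fold higher, at 26.1 in control and 109 in SKF. Symbols called in either direction had low values: the median of their mean was 119 for the higher and 265 for the lower symbols, against 1380 over all kept symbols. Of the higher symbols, 42 rested on at least 2 unigenes that themselves reached the minimum, and in all 42 every such unigene was higher. Of the lower symbols, 177 did so, and in 165 every such unigene was lower. The calls were made on sums that include these same unigenes, so this agreement is no separate check. Over all 7945 kept symbols with at least 2 such unigenes, 4650 had all of them on 1 side. Another 85 higher and 216 lower symbols had only 1 such unigene.

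**Figure D1:**
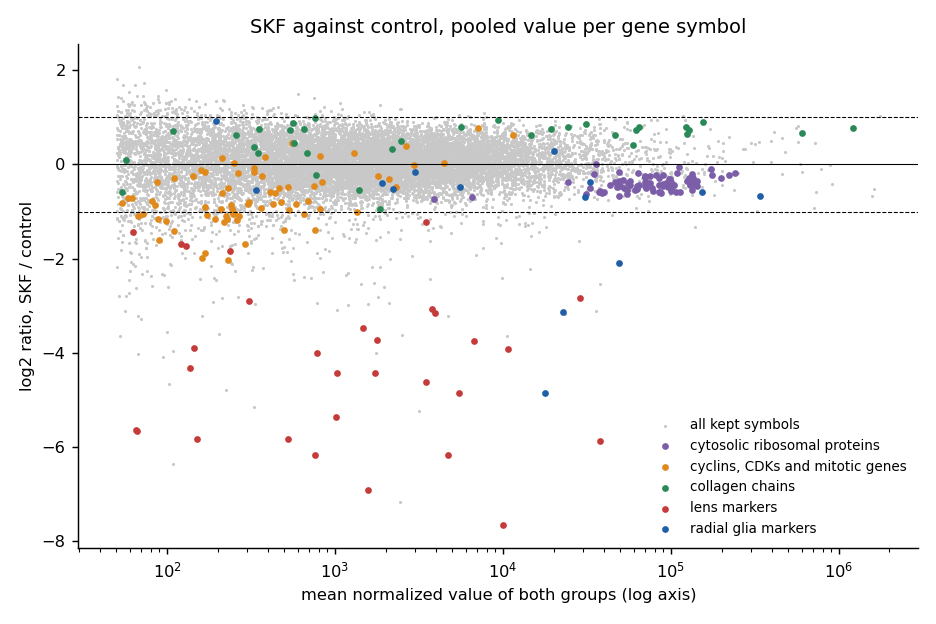
Each point is a gene symbol, with the mean normalized value of control and SKF on a log x axis and the log2 ratio of SKF to control on the y axis; dashed lines mark 2-fold, colors mark 5 gene groups, and the 7 symbols with no reads in SKF are not drawn. Lens genes lie far below the other symbols, ribosomal proteins form a tight cloud just below 0, and most collagens lie above 0.

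The identity of the cultures was checked first. Of 17 radial glia marker symbols with reads, 14 passed the minimum, and 12 of the 14 were lower in SKF. Values of *gfap*, the glial intermediate filament protein, were 184149 in control and 123357 in SKF, a log2 ratio of -0.58 [-0.59, -0.56]. For *vim*, vimentin, the values were 419703 and 261840, a log2 ratio of -0.68 [-0.69, -0.67]. *sox2*, a transcription factor that maintains neural progenitors, stood at 38041 and 23596 (log2 ratio -0.69). The marker genes were thus read in both groups, and the filament genes differed by less than 2-fold.

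The members furthest below 0 were fatty acid binding proteins and a glutamate transporter. *fabp7a*, a copy of brain lipid-binding protein, was 34419 in control and 1198 in SKF, a log2 ratio of -4.84 [-4.98, -4.71], and both of its unigenes above the minimum were lower. The other copy, *fabp7b*, was 79306 in control and 18626 in SKF (log2 ratio -2.09). *slc1a3b*, which encodes a glial transporter that takes up glutamate, was 40629 and 4654, a log2 ratio of -3.13 [-3.20, -3.06]. These 3 were the only radial glia markers past 2-fold. All 4 kept fatty acid binding protein genes were at least 2-fold lower, with a median log2 ratio of -1.71 in SKF and -1.89 in SNa. The glutamine synthetase genes, whose enzyme turns the glutamate taken up into glutamine, differed less, with log2 ratios of -0.52 for *glula* and -0.38 for *glulb*.

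A pair of markers was higher. *nes*, the progenitor filament protein nestin, was 18193 in control and 22055 in SKF (log2 ratio 0.28). *pax6a*, a regional transcription factor, was 136 and 257, a log2 ratio of 0.92 [0.49, 1.35], but its more strongly read copy *pax6b* was 6463 and 4623, and the copies joined gave -0.44. Over the 14 markers the median log2 ratio was -0.54, beside 0.04 over all kept symbols, and it was -0.55 in SNa. In pooled bulk RNA, fewer cells of a type and less RNA per cell cannot be told apart.

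Brain aromatase, listed as *cyp19a1* by its protein match, was 184 in control and 15.6 in SKF, from 240 and 12 reads, a log2 ratio of -3.56 [-5.03, -2.39]. In SNa, compared with the same controls, its log2 ratio was -3.73, from 8 reads, so the lower value was not particular to SKF. According to the paper, earlier studies showed that activating D1 receptors can raise aromatase B in RGCs. The paper does not give the agonist, dose, time or measure of that work, so the values here cannot be set directly against it. Other genes of steroid metabolism were lower in SKF too. *hsd11b2*, which inactivates cortisol, was 745 and 218 (log2 ratio -1.78), and *hsd17b3*, which makes testosterone, was 801 and 267 (log2 ratio -1.59). *ar*, the androgen receptor, was 75.2 in control and 150 in SKF, a log2 ratio of 0.99 with a wide interval [0.43, 1.58]. Over the 37 kept genes of steroid synthesis and estrogen signaling, 17 were above 0, 20 below 0 and 3 at least 2-fold lower, with a median of -0.07.

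**Figure D2:**
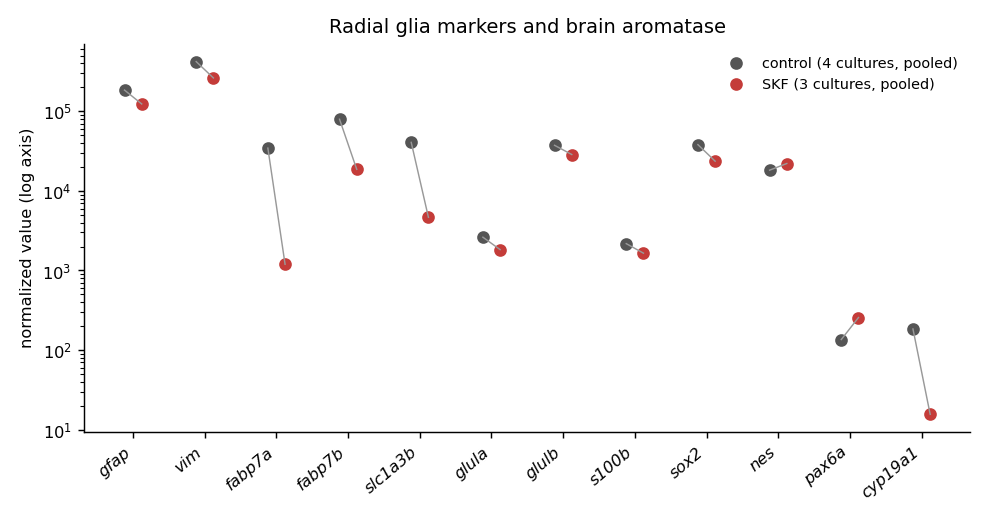
Pooled normalized values (log y axis) of 11 radial glia markers and of brain aromatase (*cyp19a1*) are shown for control (grey) and SKF (red). A line joins them for each gene, and there is no error bar because the files hold 1 value per group. The 4 control and 3 SKF cultures of the legend are those labelled, and which controls entered the pool is not stated. Lines fall steeply for *fabp7a*, *fabp7b*, *slc1a3b* and *cyp19a1*, and run upward for *nes* and *pax6a*.

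The D1 pathway itself was described from receptor to nucleus. No symbol named after a D1-type receptor was found among the gene and protein names. The only dopamine receptor kept was *drd4b*, a D4-type receptor, at 56.8 in control and 63.8 in SKF, from 74 and 49 reads, and its interval [-0.67, 0.92] spans 0. Of 29 kept G protein subunits, 19 were above 0 (65.5%, beside 54% over all kept symbols) and 10 below, with a median of 0.10. The subunit furthest below was *gnat2*, the cone transducin of photoreceptors, at 682 and 263 (log2 ratio -1.38), and the one furthest above was *gnai2b*, an inhibitory subunit, at 313 and 528 (log2 ratio 0.75).

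Adenylyl cyclases went both ways. Of 8 kept genes, *adcy8*, a calcium-stimulated cyclase, was 2444 in control and 419 in SKF, a log2 ratio of -2.54 [-2.79, -2.31], and it alone was past 2-fold. All 3 of its unigenes above the minimum were lower, and without the one of highest mean the log2 ratio was -1.11. *adcy7* was 4591 and 3548 (log2 ratio -0.37), and *adcy6b* was 388 and 340 with an interval [-0.51, 0.12] that spans 0. *adcy5*, which in the mammalian striatum is the main cyclase downstream of D1 receptors, was 347 in control and 607 in SKF, a log2 ratio of 0.81 [0.54, 1.08]; in SNa its log2 ratio was 0.28, and on its unigenes below 60000 alone that of SKF was -0.06. *adcy3* was 1206 and 1951 (log2 ratio 0.69), *adcy2b* 2085 and 2845 (0.45), and *adcy6a* 649 and 763 (0.23, but -0.05 on its unigene of highest mean). For *adcy3b* the values were 125 and 135, with an interval [-0.42, 0.62] that spans 0. The list median was 0.17, and it changed sign in 3 of 14 alternative ways of summing or selecting unigenes.

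Protein kinase A genes were mostly higher, none past 2-fold. Of 18 kept subunits and anchoring proteins, 16 were above 0 (88.9%, beside 54% over all kept symbols). The median log2 ratio was 0.36 in SKF and 0.25 in SNa. The regulatory subunit *prkar1aa* was 4058 in control and 6535 in SKF (log2 ratio 0.69). The anchoring protein genes *akap7* and *akap6* had log2 ratios of 0.72 and 0.68. The catalytic subunit *prkacab* was below 0, at 2411 and 2121 (log2 ratio -0.19), and turned to 0.26 without its unigene of highest mean.

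Phosphodiesterases of cyclic nucleotides had a median of 0.41 over 12 kept genes, 8 of them above 0 (66.7%, beside 54% over all kept symbols). The genes of the cyclic AMP-specific type 4 enzymes were higher, from *pde4bb* at 10358 and 11616 (log2 ratio 0.17) to *pde4ba* at 4189 and 6173 (0.56) and *pde4b* at 88.3 and 167 (0.92). *pde8b*, of another cyclic AMP-specific type, was 5027 and 4265 (log2 ratio -0.24, but 0.32 without its unigene of highest mean), while its log2 ratio in SNa was -0.84. Among 26 kept CREB, ATF and CRTC genes, 21 were above 0 (80.8%, beside 54% over all kept symbols) and none was past 2-fold. The stress-responsive factors *atf5a* (7956 and 14280, log2 ratio 0.84) and *atf5b* (8055 and 13934, log2 ratio 0.79) were highest by ratio. *cremb*, a cyclic AMP-responsive modulator, was 14686 and 10294 (log2 ratio -0.51), with all 5 unigenes lower.

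**Figure D3:**
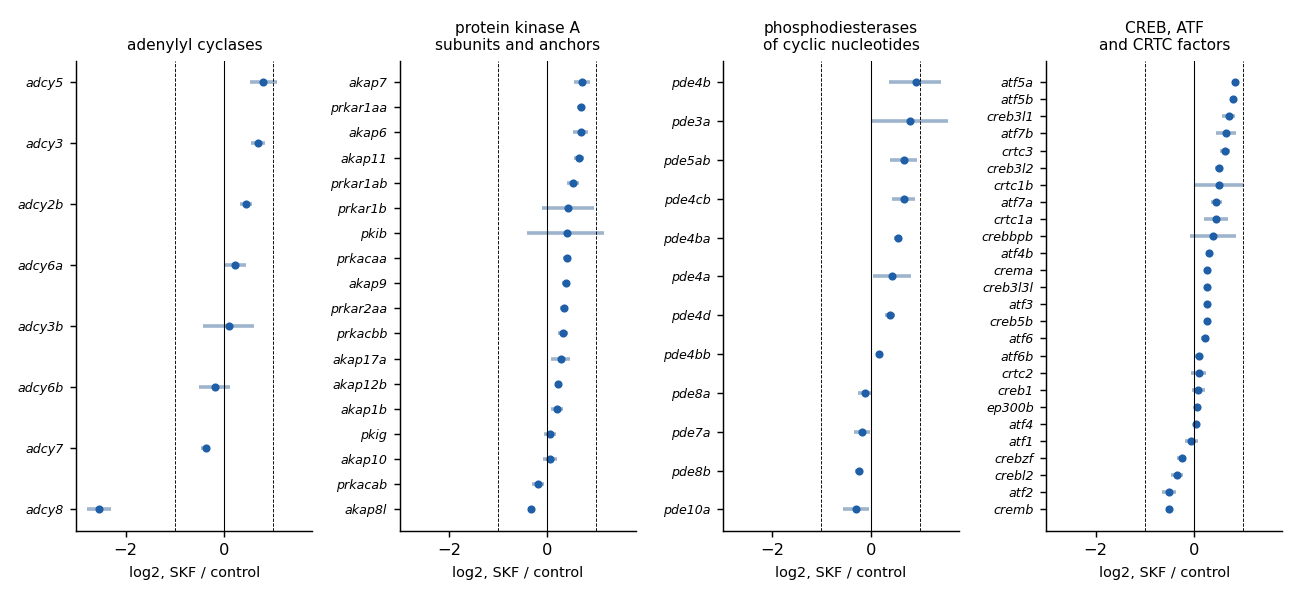
Log2 ratios of SKF to control (x axis) are shown for every kept adenylyl cyclase, protein kinase A gene, cyclic nucleotide phosphodiesterase and CREB, ATF or CRTC factor, with 95% counting intervals as bars and 2-fold as dashed lines. All genes but *adcy8*, at -2.54, lie within 2-fold, and those of the kinase and of the CREB group lie mostly above 0.

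Immediate-early genes, which respond to cyclic AMP and growth factors within an hour, had a median of 0.15 over 40 kept symbols at 24 h. Of these, 26 were above 0 (65%, beside 54% over all kept symbols). *fosl1b*, an AP-1 subunit, was the only one past 2-fold, at 712 in control and 333 in SKF (log2 ratio -1.09). Its copy *fosl1a* was 53863 and 54022, so that the copies joined gave -0.01. *jun* was 45615 and 27436 (log2 ratio -0.73), and *fosab* was 173543 and 160074 (log2 ratio -0.12). *egr2b* was 636 and 1151 (log2 ratio 0.86), and the orphan nuclear receptor gene *nr4a3* was 70079 and 88423 (log2 ratio 0.34, beside 0.03 in SNa). Among regulators of G protein signaling and receptor kinases, 12 of 16 were above 0 (75%). Against this, *rgs5b*, a pericyte marker in vertebrates, was 13160 and 5510, a log2 ratio of -1.26 [-1.33, -1.19], and -0.90 without its unigene of highest mean. Of 30 kept clock genes, 23 were above 0 (76.7%, beside 54% over all kept symbols), with a median of 0.32. *bhlhe41*, a repressor of the clock, had a log2 ratio of 0.99.

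Lens genes were lower than any other group described. Lens cells are filled with crystallins and with beaded-filament and fiber membrane proteins, and none of these is among the kept radial glia markers. All 33 kept lens symbols, of 38 with reads, were at least 2-fold lower in SKF, and their median log2 ratio was -4.42 in SKF and -4.30 in SNa. Their summed value was 246348 in control and 16529 in SKF. *crybb1*, a beta crystallin, was 19943 in control and 99.0 in SKF, a log2 ratio of -7.65 [-8.15, -7.20]. *crygm2d12*, a gamma crystallin, was 74055 and 1262 (log2 ratio -5.87). Among the 25 kept crystallins the smallest difference was that of *cryabb*, at a log2 ratio of -1.43, and its copy *cryaba* was at -1.72. *bfsp2*, a beaded-filament protein of lens fibers, was 1504 and 20.8 (log2 ratio -6.17), and *lim2.2*, a lens membrane protein, was 4899 and 2110 (log2 ratio -1.22).

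Some lens genes had no reads in SKF. Against a floor of 3 reads set for the SKF group, the control value of *crygmxl2*, 416 from 542 reads, was 106-fold higher. That of *crybgx*, 272 from 354 reads, was 69.5-fold higher. The floor was chosen, so these folds are not counting bounds. Across all kept symbols 7 had no reads in SKF and none had no reads in control. The strongest of the 7 was a transcript that matched a nucleoprotein at 33.13% identity, *d623_10023611*, with 66925 reads in control and 0 in both SKF and SNa; it was singled out after its values were seen. Because the controls are pooled, the files do not show whether 1 culture or all of them carried these reads, and it is not stated which of the 4 labelled control cultures entered the pool. Without the symbols of the lens list, which may not hold every lens gene, 435 symbols were at least 2-fold lower.

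Other cell-type markers were checked in the same way. Over all kept symbols, 54% were above 0, 1.25% at least 2-fold higher and 3.33% at least 2-fold lower, for comparison with their counts. Of 21 kept neuron markers, 11 were above 0, 5 were at least 2-fold lower and 1 at least 2-fold higher, with a median of 0.00. The summed value was 29616 in control and 13823 in SKF, and most of that difference was *stmn1b*, a microtubule-destabilizing protein of growing neurons, at 16678 and 3118 (log2 ratio -2.42). The higher gene was *map1b*, a microtubule-associated protein, at 37.6 and 89.9 (log2 ratio 1.26), and *stmn4l*, a related stathmin, was 432 and 15.6 (log2 ratio -4.79). *slc6a3*, the dopamine transporter, was 550 and 262, a log2 ratio of -1.07 [-1.41, -0.75]. Among 11 endothelial markers, with a median of -0.15, 4 were above 0 and 4 at least 2-fold lower. The vascular transcription factor gene *fli1a* was 498 and 736 (log2 ratio 0.56), and the lower ones include *cldn5a*, a tight junction protein of the blood-brain barrier, at 11783 and 3438 (log2 ratio -1.78). Pigment cell genes were few, with 3 kept, of which 2 were above 0 and 1 below, with a median of 0.56. The highest, *tyrp1b*, an enzyme of melanin synthesis, was 411 in control and 1089 in SKF, a log2 ratio of 1.40 [1.18, 1.63]. Of 5 microglia and macrophage markers 3 were above 0, with a median of 0.16; *apoeb*, an apolipoprotein, made up most of their summed value, at 66620 and 64654, and the leukocyte gene *ptprc* was 195 and 388 (log2 ratio 0.99). Of 11 epidermis markers 4 were above 0 and 2 at least 2-fold lower, with a median of -0.16. Their summed value was 1061683 in control and 934264 in SKF. Of 20 muscle markers 12 were above 0, with a median of 0.07 and summed values of 535773 and 707268. Of 4 oligodendrocyte markers 1 was above 0, with a median of -0.125. The part of these cell types in the other differences was not tested.

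Fibroblast and mural cell markers were mostly higher. Of 34 kept, 28 were above 0, 3 at least 2-fold higher and 2 at least 2-fold lower. Over all kept symbols these shares were 54%, 1.25% and 3.33%. The summed value of the markers was 5371476 in control and 8611841 in SKF. Their median was 0.61 in SKF, beside 0.04 over all symbols, and 0.57 in SNa. However, 16 of the 34 are themselves matrix genes. The other 18 had 12 above 0 and a median of 0.34 in SKF. *pdgfrb*, the receptor that marks mural cells, was 4417 and 6669 (log2 ratio 0.59). *acta2*, smooth muscle actin, was 370593 and 547062 (log2 ratio 0.56). *twist2*, a mesenchymal transcription factor, was 310 and 91.2 (log2 ratio -1.77), and it and the pericyte marker *rgs5b*, given above at -1.26, were the lower calls.

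Extracellular matrix genes were mostly higher. The collagen, matrix glycoprotein and matrix protease lists held 158 kept symbols, with a median of 0.58. Of these, 130 were above 0, 9 at least 2-fold higher and 4 at least 2-fold lower. Over all kept symbols 54% were above 0, 1.25% at least 2-fold higher and 3.33% at least 2-fold lower. Of 34 collagen chains, 30 were above 0 and none was past 2-fold, with a median of 0.69 in SKF and 0.58 in SNa. The fibrillar chains *col1a2* (467629 in control and 739847 in SKF, log2 ratio 0.66) and *col1a1b* (108938 and 203308, log2 ratio 0.90) were higher on every unigene above the minimum. The cartilage-type chain genes *col2a1a* and *col9a3* were lower, with log2 ratios of -0.95 and -0.55.

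Fibronectin and elastin were among the highest. *fn1b*, a fibronectin that binds integrins, was 1162581 in control and 2362712 in SKF, a log2 ratio of 1.02 on both unigenes, and *fn1a* was 416804 and 730455 (log2 ratio 0.81). *lama2*, a laminin chain of basement membranes, was 1006 and 2164 (log2 ratio 1.11, and 0.62 on its unigenes below 60000). *elnb*, an elastin, was 546 and 1135, a log2 ratio of 1.06 [0.85, 1.26], beside 0.02 in SNa. *postna*, periostin, was 5255 and 10559 (log2 ratio 1.01, and 0.46 joined with its copy *postnb*). Against the direction of the group, *thbs3a*, a thrombospondin, was 8490 and 920 (log2 ratio -3.21), and *thbs3b* was 2772 and 354 (log2 ratio -2.97, but 0.65 without its unigene of highest mean).

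Of 58 kept matrix proteases, their inhibitors and lysyl oxidases, 47 were above 0, 3 at least 2-fold higher and 1 at least 2-fold lower, with a median of 0.46. The lower one was the protease gene *adamts8a*, at 481 in control and 156 in SKF (log2 ratio -1.62), with all 3 unigenes lower. *loxl3a*, a lysyl oxidase that cross-links collagen and elastin, was 672 in control and 1516 in SKF, a log2 ratio of 1.17 [0.99, 1.35], and 0.44 in SNa; joined with its copy *loxl3b* it was 0.36. *adamts10* was 199 and 453 (log2 ratio 1.19), and *mmp2*, a gelatinase, was 69350 and 117351 (log2 ratio 0.76). *plod2* and *p4ha1b*, hydroxylases that modify collagen in the endoplasmic reticulum, had log2 ratios of 0.80 and 0.79, whereas *hspa5*, its general chaperone, was 59008 and 50271 (log2 ratio -0.23, but 0.06 without its unigene of highest mean). Of 42 kept genes for folding and collagen modification 33 were above 0.

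Most cell division genes were lower. Of 72 kept cyclins, cyclin-dependent kinases and mitotic genes, 62 were below 0 and 23 at least 2-fold lower (beside 3.33% over all kept symbols). Their median was -0.80 in SKF and -0.92 in SNa, and that of SKF was -0.61 at a minimum mean of 200. The summed value differed little, at 57667 in control and 55707.5 in SKF. *mad2l1*, of the spindle checkpoint, was 372 in control and 91.2 in SKF, a log2 ratio of -2.03 [-2.58, -1.51]. *spc25*, of the kinetochore, was 256 and 65.1 (log2 ratio -1.98). Cyclins D2, which drive entry into the cycle, were higher, at 5297 and 8984 for *ccnd2a* (log2 ratio 0.76) and 8966 and 13892 for *ccnd2b* (0.63). Of 53 DNA replication and nucleotide synthesis genes, 45 were below 0 and 8 at least 2-fold lower, with a median of -0.54. *tk1*, thymidine kinase, was 530 and 117 (log2 ratio -2.18), and *mcm6*, of the replicative helicase, was 300 and 67.7, a log2 ratio of -2.15, beside -0.94 in SNa.

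Ribosomal, respiratory chain and proteasome genes were mostly lower, by less than 2-fold, whereas of 52 genes of glycolysis and of glucose and lactate transport 38 were above 0, with a median of 0.18. Of 78 cytosolic ribosomal proteins, 77 were below 0 and none was past 2-fold; the median was -0.43 and the range ran from -0.73 to 0.02. For 69 mitochondrial ribosomal proteins the median was -0.46, with 65 below 0. Of 101 nuclear genes of oxidative phosphorylation 92 were below 0, with a median of -0.46, and *cox7b*, a subunit of cytochrome c oxidase, was 10244 and 5643 (log2 ratio -0.86). The 4 mitochondrially encoded genes ran from *cox2*, at 931481 and 490996 (log2 ratio -0.92), to *cox1*, at 1923018 and 1334376 (-0.53). Of 53 proteasome subunits 48 were below 0, with a median of -0.31. Translation factors, at a median of -0.07 over 70 genes, were near the middle of all symbols, and *eef1a* was 884449 and 882323.

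**Figure D4:**
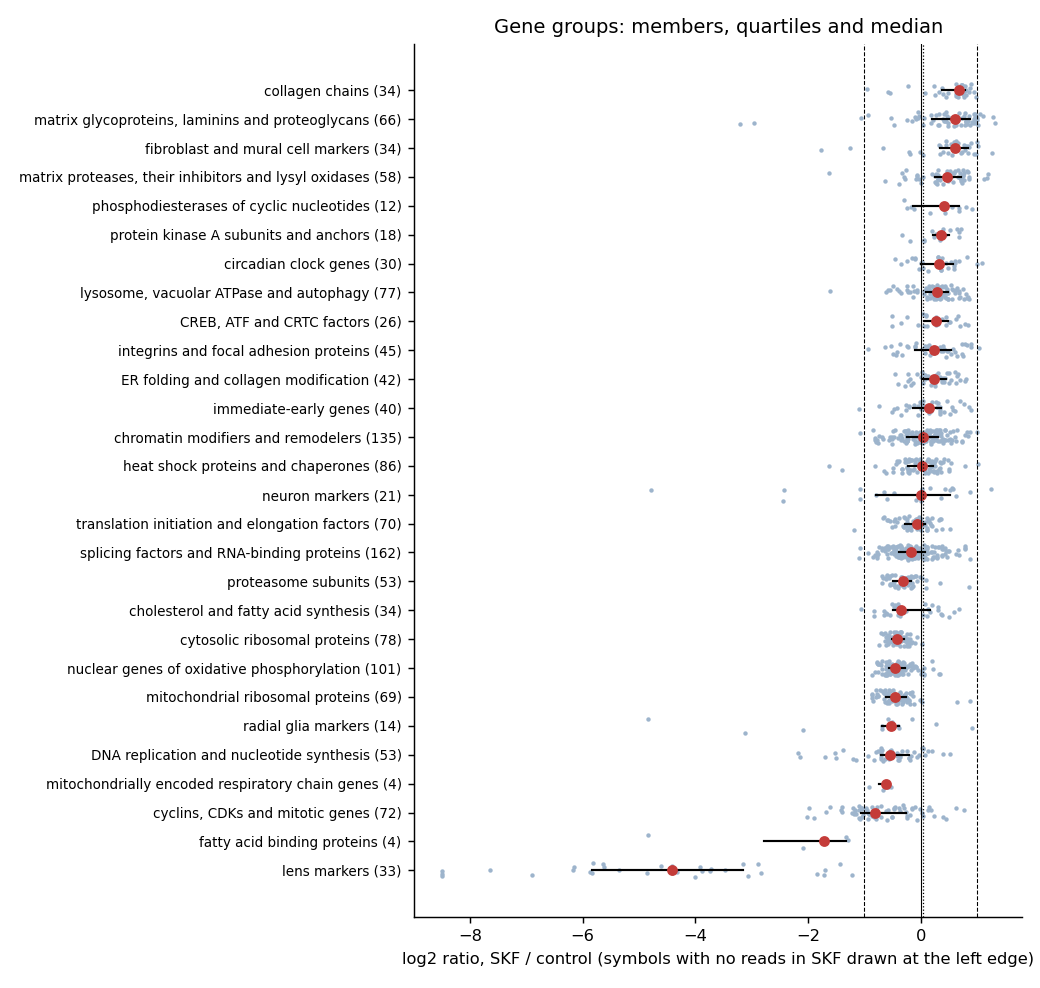
Small points are the log2 ratios of SKF to control of the kept members of 28 gene groups (their number in parentheses), black bars are quartiles and red points medians; dashed lines mark 2-fold, the dotted line the median of all symbols at 0.04, and lens genes with no reads in SKF are drawn at the left edge. Medians run from -4.42 for lens markers to 0.69 for collagen chains. All 4 fatty acid binding proteins are at least 2-fold lower, and most members of the remaining groups lie within 2-fold.

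Lysosome and autophagy genes were higher, the reverse of the proteasome. Of 77 kept, 60 were above 0, with a median of 0.30 in SKF and 0.18 in SNa. *ulk1a*, a kinase that starts autophagy, was 2556 and 4582, a log2 ratio of 0.84, with all 8 unigenes higher. *sqstm1*, an adaptor that carries cargo to autophagosomes, was 107553 and 163245 (log2 ratio 0.60). *ctsc*, a lysosomal protease, was 21708 and 39231 (log2 ratio 0.85). *ostm1* and *clcn3*, which belong to the chloride transport system of endosomes and lysosomes, were both among the 15 highest symbols with a mean of at least 500, both at a log2 ratio of 1.06; that of *clcn3* was 0.36 once unigenes named only in the protein match were added.

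The highest of those 15 symbols was *plxnb2b*, a receptor for semaphorins, at 318 in control and 888 in SKF, a log2 ratio of 1.48 [1.23, 1.74], beside 0.83 in SNa. Its copy *plxnb2a* was 9569 and 12289, and the copies joined gave 0.41. *steap4*, a metalloreductase, was 619 and 1519 (log2 ratio 1.30), *hps5*, of lysosome-related organelle formation, 1098 and 2609 (1.25), and *dhrs3a*, which reduces retinal, 1513 and 3431 (1.18, and 0.66 on its unigenes below 60000). *lrp1ab*, an endocytic receptor, was 4963 and 10511 (log2 ratio 1.08), with all 6 unigenes higher. *cacna1ha*, a T-type calcium channel, was 511 and 1114 (log2 ratio 1.12). The 15 lowest symbols at this mean were 14 lens genes and *fabp7a*.

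A few developmental genes were far lower than the medians of their lists. *nog2* and *nog3*, which bind and block BMPs, had log2 ratios of -2.95 (3723 in control and 482 in SKF) and -3.97, while the median over 62 TGF-beta and BMP genes was 0.25. *wnt7bb* was 333 and 44.3, and *wnt7aa* 1438 and 404, log2 ratios of -2.91 and -1.83, in a Wnt list with a median of 0.16 over 35 genes. Among 17 SOX factors, whose median was -0.16, 4 were at least 2-fold lower and 2, *sox8a* and *sox10*, at least 2-fold higher. The lower ones include *sox1b*, a neural progenitor factor, at 3170 and 448, a log2 ratio of -2.82 [-3.06, -2.60]. Of 85 homeobox and regional identity factors 51 were above 0 (60%, beside 54% over all kept symbols). In this list 2 were at least 2-fold higher and 6 at least 2-fold lower. For this list and the SOX factors, the shares over all kept symbols were 1.25% higher and 3.33% lower. In the homeobox and regional identity list, values were as follows. The lowest log2 ratio was -1.78, and the lowest at a mean of at least 100 was *dlx2a* at 723 and 232 (log2 ratio -1.64).

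Symbols that differ only in a final a or b gave a view of the ratios within pairs. Teleosts kept many genes in copies named a and b, and 1314 pairs of such names had both members among the kept symbols. The pairs were formed by name alone, so they include separate genes, such as *aurka* and *aurkb*, beside duplicated copies. Both members were above 0 in 573 pairs and both below 0 in 273, and 468 pairs were split. In 11 pairs both copies were at least 2-fold lower, among them *fabp7*, *stmn1*, *thbs3*, *cldn5* and the crystallin genes *cryab*, *cryba1* and *cryba2*. In 28 pairs 1 copy was at least 2-fold lower while the other was above 0. In 4 pairs both were at least 2-fold higher. Reads of near-identical copies may have been assigned to either copy.

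Ratios also moved with the number of the unigene in the assembly. Over unigenes with a mean of at least 50, the median log2 ratio of SKF was -0.08 for numbers below 60000, 0.07 from 60000 up to 110000, -0.02 from there up to 160000 and -0.41 for 160000 and above; for SNa it was -0.11, -0.04, 0.04 and -0.45. Of the 176 symbols at least 2-fold higher, 112 had most of their value on unigenes from 60000 up to 110000 (63.6%, beside 37.9% of all kept symbols), and without these unigenes the number was 78, beside 507 at least 2-fold lower. The sources used here do not say what the numbers stand for, and their part in the results was not tested.

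**Figure D5:**
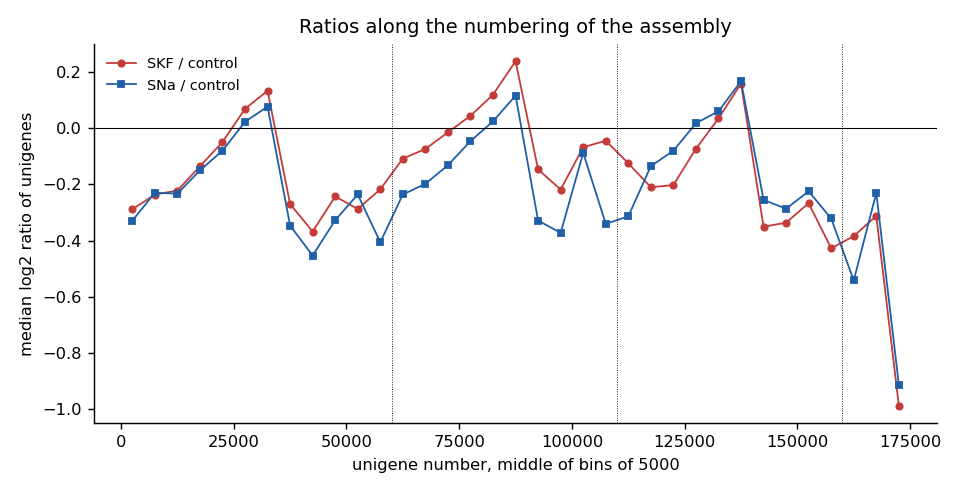
The median log2 ratio of treated to control (y axis) is plotted for unigenes with a mean of at least 50 in bins of 5000 unigene numbers (x axis), in red for SKF and blue for SNa; dotted lines mark 60000, 110000 and 160000, and bins with fewer than 20 unigenes are left out. The medians climb within each of the first 3 stretches and then drop, in both treatments.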

How the data were processed

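Poly(A)-selected RNA of 10 RGC cultures was sequenced in paired ends; the labels give 4 control and 3 SKF cultures, while the paper states 3 controls, and which of them entered the pooled control value is not stated. The authors ran a Trinity assembly on pooled reads, reduced the contigs with CD-HIT and annotated them by BLAST against proteins of chordates. What the authors deposited as expression signal is a DESeq-normalized read count, with 1 value for each unigene in each group. The sources used here do not give the DESeq version or the program that counted reads, and no genome was used. The percent identity is that of the protein match as deposited by the authors. Columns with the authors' fold changes, p-values and calls were not used.

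Division by the value of a single read gave back whole reads; that value was 0.768 in control and 1.30 in SKF, and 100% of values came out whole within 0.01 of a read. As 74.8% of control values and 78.0% of SKF values were even, reads were divided by 2 for the intervals (exact Clopper-Pearson, 95%). Values were summed per symbol over 51128 named unigenes of 169073, which held 81.2% of the control and 82.8% of the SKF value. With 1 value per group no test was run, and no difference has a replicate check; replicates on several lanes were pooled by the authors. The interval was tested on simulated reads whose counts were all even, unlike the data, so the test cannot show its coverage for odd values. Members, 71 gene lists and alternatives were chosen with earlier results of these data known; patterns that matched a list by letters only were removed by name after the files were read. Named symbols were all kept dopamine receptors and adenylyl cyclases, the radial glia markers, the 15 highest and 15 lowest log2 ratios at a mean of at least 500 (clone and locus names passed over), up to 3 members of each list with the highest mean and 3 at each end of the ratio at a mean of at least 100, the 10 highest control values and the 2 symbols nearest the minimum. Second copies (*pax6b*, *fosl1a*, *plxnb2a*, *loxl3b*, *postnb*) and *map1b* and *sox8a* were added once their values were known. Alternatives changed the scaling, minimum, fold, unigenes summed and names. Python 3.11.15, pandas 2.3.3, NumPy 2.4.6, SciPy 1.17.1 and Matplotlib 3.10.9 were used.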

Additional observations from a re-analysis of the deposited data

Results flagged for a closer look

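Unigenes without a gene name stand outside the comparison by symbol, and 26579 of them reached a mean of 50. Of these, 560 were at least 2-fold higher in SKF (2.11%, beside 2.75% of 30490 named unigenes) and 2924 at least 2-fold lower (11%, beside 3.20% of the named ones). The most abundant of the higher ones, unigene 22441, was 26015 in control and 53405 in SKF, a log2 ratio of 1.04, beside 0.76 in SNa. Unigene 43362 was 66.0 in control and 432 in SKF, from 86 and 332 reads. Its log2 ratio was 2.71, beside -0.29 in SNa, from 31 reads. Unigene 91952 was 7.68 in control and 92.5 in SKF, from 10 and 71 reads. Its log2 ratio was 3.59, beside -1.14 in SNa, from 2 reads. Unigenes 43362 and 91952 were picked out once their values were known. No protein can be named for them here.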

How the results depend on the processing

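No paired analysis was possible because the tables hold 1 pooled column per group, and for the same reason no culture could be left out. The number of symbols at least 2-fold higher, 176 as reported, was 509 at a minimum mean of 10, 66 at 200, 53 with only unigenes below 60000, 115 with only those from 110000 to 160000 and 78 without those from 60000 to 110000. The number at least 2-fold lower, 468 as reported, was 830 at a minimum mean of 10, 274 at 200, 258 without the unigene of highest mean and 231 with only unigenes from 110000 to 160000. With 1.5-fold as the threshold 1473 were higher and 1301 lower, and with 4-fold 1 and 115. The settings on 110000 to 160000 alone and without 60000 to 110000 were added after seeing the data. Among the group medians, that of mitotic genes was -1.01 with only unigenes below 60000, that of cytosolic ribosomal proteins -0.47 after centring and -0.33 without the unigene of highest mean, and that of collagen chains 0.44 with only unigenes from 110000 to 160000. Medians of lens, radial glia, mitotic, ribosomal, respiratory, proteasome, lysosome, collagen and matrix groups kept their sign in all 14 alternatives, but that of the mitochondrially encoded genes, -0.62 as reported, was -4.68 with only unigenes below 60000 and -4.94 without the unigene of highest mean, where weak protein matches remained. Of 542 named genes 75 turned sign in at least 1 alternative; among those past 2-fold these were *thbs3b*, at 0.65 without its unigene of highest mean, and *prkcda*, at 0.16 with copies a and b joined. Of 33 named genes at least 2-fold higher 20 fell short of 2-fold in some alternative, and of 94 at least 2-fold lower 18 did or turned; the cause was not tested.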

Other observations

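A few genes outside all lists were picked out once their values were known, and they stand for no group. *crabp1a*, which binds retinoic acid in the cytoplasm, was 64573 in control and 7512 in SKF, a log2 ratio of -3.10, beside -2.98 in SNa. *rbp5*, a cellular retinol-binding protein, was 64353 and 11128 (log2 ratio -2.53), and *cyp26c1*, which breaks down retinoic acid, was 3346 and 554 (log2 ratio -2.60). Other genes of retinoid handling differed less, with *crabp2a* at 15217 and 15262 and *rdh10a* at 39099 and 42495, while *crabp2b* had a log2 ratio of -0.43. An embryonic beta globin, *be1*, was 2114 and 268 (log2 ratio -2.98). *ckbb*, a brain creatine kinase, was 1848 and 216 (log2 ratio -3.10), while its copy *ckba* had a log2 ratio of 0.50.

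Carriers of the SLC16 family, which move lactate and other monocarboxylates or aromatic amino acids, went both ways. *slc16a3* was 2123 in control and 1594 in SKF (log2 ratio -0.41). *slc16a1b* was 1135 in control and 2281 in SKF (log2 ratio 1.01), and *slc16a10* had a log2 ratio of 1.35. Of 34 kept cholesterol and fatty acid synthesis genes 21 were below 0, and *fads2*, a desaturase that makes long polyunsaturated fatty acids, was 27467 and 13207 (log2 ratio -1.06).

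Weak protein matches of mitochondrial genes differed from the strong ones. The main unigene of *cox1*, at 91.28% identity, was 1922729 in control and 1334368 in SKF (log2 ratio -0.53), whereas another unigene named *cox1*, at 46.03% identity, had 377 reads in control, 6 in SKF and 0 in SNa. For *cox2* the main unigene, at 86.96% identity, had a log2 ratio of -0.92, and a unigene at 38% identity had 347 reads in control, 8 in SKF and 0 in SNa. The origin of the weak matches was not tested, and their reads change the summed value of either gene by too little to alter its ratio.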
